A study of Mus musculus with 4 samples.

Results

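The genes described here encode the enzymes that make, elongate and desaturate fatty acids. They were chosen by gene symbol: Acly, Acaca, Acacb, Fasn, Scd1, Scd2, Elovl5, Elovl6, Fads1 and Fads2, which are 10 of the 22138 genes listed in the deposited table. RNA-seq was done on TT2, a female mouse embryonic stem cell line (strain C57BL/6xCBA) grown without feeder cells in medium with serum and LIF. The labels name no engineered allele, and the groups differed in the small interfering RNA (siRNA) they received: control siRNA (n = 2) or siRNA against Hnrnpk (n = 2). Hnrnpk encodes hnRNP K, a nucleic acid-binding protein, and the series title connects it to silencing by the histone methyltransferase SETDB1. In both groups 100 nM siRNA was followed 24 hours later by 50 nM, with harvest about 72 hours after the second dose. TT2 is a single cell line, and the labels call the replicates biological without saying whether they were separate cultures, so the spread between replicates may be partly technical.

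Fatty acid synthesis starts in the cytosol, where ATP citrate lyase (Acly) splits citrate that mitochondria export and so yields acetyl-CoA. Acetyl-CoA carboxylase (Acaca, cytosolic, and Acacb, bound to the mitochondrial outer membrane) turns it into malonyl-CoA, and fatty acid synthase (Fasn) builds palmitate from both. Elovl6 lengthens palmitate, the stearoyl-CoA desaturases Scd1 and Scd2 place the first double bond, and Fads2, Elovl5 and Fads1 desaturate and lengthen the polyunsaturated fatty acids. Many of these genes are known targets of the transcription factor SREBP-1, and the malonyl-CoA that acetyl-CoA carboxylase makes also blocks the entry of fatty acids into mitochondria for oxidation.

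All 10 genes were annotated as protein coding. Promoters are shown for Fasn, Acly and Fads2, which were among the genes with lower RNA after Hnrnpk siRNA, and for Elovl5, which was not, so that their letters can be set beside the values that follow. Each is the 250 bases before the start site in RefSeq's GRCm38.p6 annotation, 5′ to 3′ on the strand of the gene. Capitals mark CCAAT (the CCAAT box, bound by NF-Y) and GGGCGG (the GC box, bound by SP1), each searched on both strands, so ATTGG and CCGCCC are marked too.
Fasn (chr11:120824548-120824797, minus strand): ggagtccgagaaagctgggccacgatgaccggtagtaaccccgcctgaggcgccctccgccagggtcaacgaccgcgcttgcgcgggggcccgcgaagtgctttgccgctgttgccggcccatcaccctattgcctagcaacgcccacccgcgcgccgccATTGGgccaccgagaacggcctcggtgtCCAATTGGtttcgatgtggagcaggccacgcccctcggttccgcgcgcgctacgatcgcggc
Acly (chr11:100528001-100528250, minus strand): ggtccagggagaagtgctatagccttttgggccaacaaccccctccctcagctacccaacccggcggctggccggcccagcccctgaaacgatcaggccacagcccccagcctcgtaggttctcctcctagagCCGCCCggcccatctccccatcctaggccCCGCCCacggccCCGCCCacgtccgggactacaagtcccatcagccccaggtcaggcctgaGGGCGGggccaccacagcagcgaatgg
Fads2 (chr19:10101504-10101753, minus strand): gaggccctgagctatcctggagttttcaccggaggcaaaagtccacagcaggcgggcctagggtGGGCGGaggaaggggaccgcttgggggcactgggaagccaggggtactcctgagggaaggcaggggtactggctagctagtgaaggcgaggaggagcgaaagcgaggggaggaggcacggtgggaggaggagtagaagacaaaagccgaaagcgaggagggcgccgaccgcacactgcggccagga
Elovl5 (chr9:77917115-77917364, plus strand): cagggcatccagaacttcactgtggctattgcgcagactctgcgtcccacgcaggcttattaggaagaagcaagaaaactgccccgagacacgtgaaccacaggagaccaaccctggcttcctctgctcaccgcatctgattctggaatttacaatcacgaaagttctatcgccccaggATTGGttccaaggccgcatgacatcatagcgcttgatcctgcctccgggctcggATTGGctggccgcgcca

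In these windows Fasn held 3 CCAAT matches, of which CCAAT and ATTGG overlapped in 1 place, Elovl5 held 2, Acly held 4 GC boxes and Fads2 held 1. RefSeq promoters were found for 7 of the 10 genes, and none for Scd1, Scd2 and Fads1. The promoters of Acaca and Acacb lie inside the gene spans given below, far from the annotated 5′ ends, at start sites within the genes. The Fads2 window lies at the annotated 5′ end of its gene, but nearly all of its bases fall inside the gene span. CCAAT was present in 3 of the 7 (Fasn, Elovl5 and Acacb), against 33.9% of 32851 promoters of the same length, and GGGCGG in 2 of the 7 (Acly and Fads2), against 32.7%. The E-box CACGTG, which USF factors bind, was found in Elovl5 alone of the 7 and in 6.02% of all promoters. The sterol response element core TCACNCCAC was found in 0 of the 7 and in 1.05% of all promoters. A match that rare was unlikely in 7 windows, so its absence says nothing about sites in these genes.

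Values were RPKM, reads scaled to the length of the gene and the size of the library. The 4 libraries had relative depths of 0.882 to 1, and 12486 genes that averaged 0.5 RPKM or more were tested with limma on log2(RPKM + 0.5). Replicates correlated across genes at r = 0.997 and 0.999, against 0.955 to 0.960 between groups; genes are not independent replicates. The targeted gene Hnrnpk stood at 236 and 226 RPKM after control siRNA and at 68.0 and 70.5 RPKM after Hnrnpk siRNA, so its RNA was reduced in the direction of the labels. Other genes, chiefly the processed pseudogene Gm7964, match 50.5% of its transcript at 95% identity or more, so the level that remained is uncertain. The 8 embryonic stem cell markers were high in every library, the lowest value being 94.2 RPKM (Klf4), and Pou5f1 lay between 245 and 301 RPKM and was not called. Nanog and Dppa5a were called higher (log2 changes 0.82 and 0.83), and Sox2 and Tdgf1 were called lower (-0.53 and -0.24). The 6 hepatocyte and 6 adipocyte markers, from tissues known for fatty acid synthesis, all lay below 0.5 RPKM in every library.

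After Hnrnpk siRNA 7 of the 10 enzyme genes were called lower (limma, Benjamini-Hochberg adjusted p under 0.05 over all genes tested) and none was called higher, while Acacb, Elovl5 and Elovl6 were not called. At an unadjusted p under 0.05 the count higher was 0 too. The RNA of the 7 called genes stood at 24.5% to 66.2% of the control mean. All 10 passed the filter on low values. The same rule called 67.2% of all genes tested, 32.2% higher and 35% lower, and the genes were proposed with this contrast in view, so the count is a description and supports nothing by itself. A fall of at least 2-fold (a log2 change of -1 or below) was reached by 5 of the 10, against 4.52% of all genes tested. Both Hnrnpk siRNA libraries lay below both control libraries for 9 of the 10, against 43.5% of all genes tested. The median log2 change was -1.01 over the 10 genes and -0.015 over all genes tested. For 1 gene alone, 2 libraries against 2 allow no exact permutation p under 0.333, and the calls depend on limma sharing its variance estimate between genes.

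**Figure D1:**
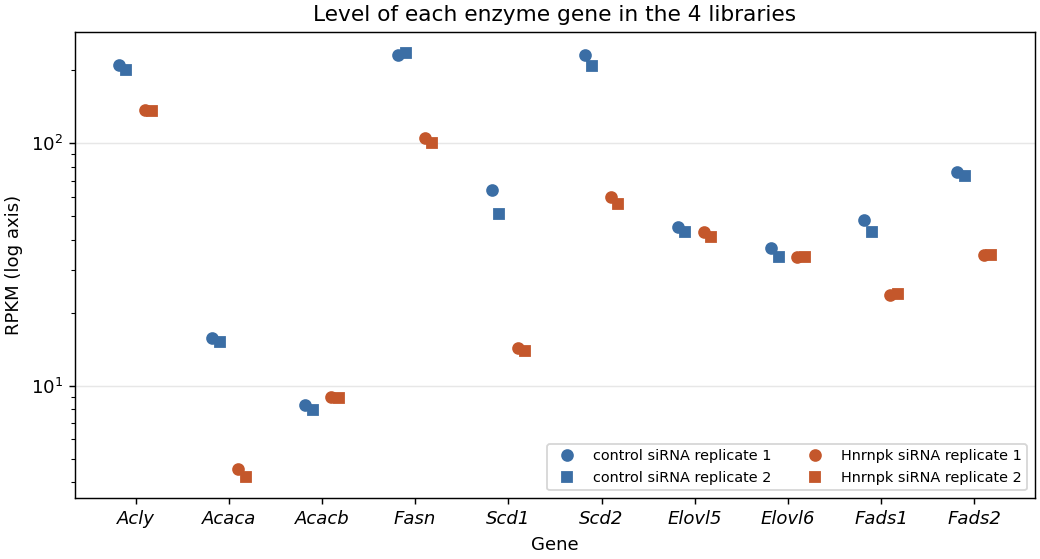
RPKM on a log axis for the 10 enzyme genes in each library (circles replicate 1, squares replicate 2; blue control siRNA, orange Hnrnpk siRNA). The orange points lie well below the blue ones for 7 genes and beside them for Acacb, Elovl5 and Elovl6.

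Markers of other cell types differed between the groups as well. Summed RPKM of 8 two-cell-like markers was 1.15 to 1.26 in control libraries and 49.9 to 57.6 in Hnrnpk siRNA libraries, with 8 of 8 called higher. The 8 primitive endoderm markers summed to 24.1 to 24.4 and to 61.3 to 63.1 RPKM, with 5 called higher and 1 lower, and the 8 trophectoderm markers to 37.1 to 41.9 and to 84.6 to 89.1 RPKM, with 6 called higher. The 8 fibroblast markers summed to 8.79 to 10.4 and to 5.05 to 5.31 RPKM, with 2 called lower. No gene of these 4 lists was listed at 0 in a library. The part of these shifts in the values of the enzyme genes was not tested. In bulk RNA, fewer cells of a type and less RNA per cell cannot be told apart.

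The step that supplies the carbon changed least among the called genes. Acly (ENSMUSG00000020917, chromosome 11, 100476353 to 100528000 on GRCm38) stood at 211 and 201 RPKM after control siRNA and at 136.5 and 136.1 RPKM after Hnrnpk siRNA. The groups did not overlap. Its mean went from 206 ± 6.70 to 136 ± 0.289 RPKM (SD, n = 2 each), which is 66.2% of control, with a log2 change of -0.59 (SE 0.0631). Acly was the third of the 10 genes by level in both control libraries and the first in both Hnrnpk siRNA libraries.

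The acetyl-CoA carboxylases parted. Acaca (ENSMUSG00000020532, chromosome 11, 84129672 to 84401651) was measured at 15.8 and 15.2 RPKM after control siRNA and at 4.53 and 4.22 RPKM after Hnrnpk siRNA, a level 28.3% of control (log2 change -1.71, SE 0.0750). Acacb (ENSMUSG00000042010, chromosome 5, 114146535 to 114250761) was measured at 8.32 and 7.98 RPKM and at 8.99 and 8.86 RPKM in the same order. The Acacb libraries of the groups did not overlap either, but they lay close together, and the log2 change of 0.12 (SE 0.0719) was not called; its 95% interval ran from 97.5% to 122% of control. With each library's trend on GC content removed, Acacb was called higher, at a log2 change of 0.25. The order of the isozymes changed between the groups: the ratio of Acaca to Acacb was 1.90 and 1.90 with control siRNA and 0.505 and 0.476 with Hnrnpk siRNA. Acaca made up 65.5% ± 0.0641 of the summed RPKM of both genes in the control group and 32.9% ± 0.896 in the Hnrnpk siRNA group (SD, n = 2 each). RPKM is scaled to the length of each gene, but the absolute level of Acaca, and so the size of this ratio, is uncertain for the reason given next.

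Reads of Acaca may include some from another locus. The longest Acaca coding transcript (9513 bases and 56 exons in GENCODE M21) shared 6117 bases, 64.3% of its length, at 99.2% identity with the processed pseudogene Gm5182 on chromosome 12, which was not analysed here. Elovl6 shared 15.2% of its transcript at 95% identity or more, chiefly with the processed pseudogene Gm11295. How reads that match several places were counted is not stated in the sources used here, so the absolute levels of both genes are uncertain. Of the longest Scd2 transcript, 623 bases (11.4%) matched other genes at that identity; its closest match was Scd1, at up to 95.5% identity, so reads of Scd1 and Scd2 may not be fully separated. The longest Scd1 transcript itself reached 88.0% at most against Scd2 transcripts. Acly, Acacb, Fasn, Elovl5, Fads1 and Fads2 shared no stretch of at least 100 bases at 95% identity with another gene.

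Fasn, which builds palmitate from the products of these enzymes, was lower too. Fasn (ENSMUSG00000025153, chromosome 11, 120805846 to 120824547), whose promoter with its CCAAT matches is printed above, had 231 and 235 RPKM with control siRNA and 105 and 101 RPKM with Hnrnpk siRNA. The Hnrnpk siRNA libraries were far below the control libraries and close to each other. The mean went from 233 ± 2.84 to 103 ± 2.95 RPKM (SD, n = 2 each), 44.1% of control, with a log2 change of -1.18 (SE 0.0626). The fall was unequal along the pathway: the ratio of Fasn to Acly went from 1.13 ± 0.0506 to 0.753 ± 0.0201, and the ratio of Fasn to Acaca from 15.0 ± 0.585 to 23.5 ± 0.519 (SD, n = 2 each). The size of the ratio to Acaca is uncertain, since reads of Acaca may include some from the pseudogene named above.

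The stearoyl-CoA desaturases had the lowest ratios to control of the 10 genes. Scd2 (ENSMUSG00000025203, chromosome 19, 44293674 to 44306864), the isozyme with the higher level here, had 232 and 208 RPKM after control siRNA and 59.9 and 56.0 RPKM after Hnrnpk siRNA, 26.4% of control (log2 change -1.91, SE 0.0733). Scd1 (ENSMUSG00000037071, chromosome 19, 44394455 to 44407879) had 64.0 and 51.2 RPKM and then 14.4 and 13.9 RPKM, 24.5% of control (log2 change -1.98, SE 0.0958). Neither gene's groups overlapped, and the control libraries differed from each other more than the Hnrnpk siRNA libraries did. Among all 12486 genes tested, ordered from the lowest log2 change, Scd1 was 9th, Scd2 was 15th and Acaca was 35th.

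Unlike the carboxylases, the Scd isozymes kept their order and nearly their proportion, within the limit given above on separating their reads. The ratio of Scd2 to Scd1 was 3.84 ± 0.311 in the control group and 4.10 ± 0.102 in the Hnrnpk siRNA group (SD, n = 2 each), and the ranges of 3.62 to 4.06 and 4.03 to 4.17 overlapped. Scd1 and Scd2 together made up 29.5% ± 1.51 of the summed RPKM of the 10 genes in control libraries and 15.7% ± 0.407 in Hnrnpk siRNA libraries (SD, n = 2 each). The related desaturase genes Scd3 and Scd4 lie in the same cluster on chromosome 19. Scd3 was low, at 1.37 ± 0.0716 and 1.80 ± 0.124 RPKM (SD, n = 2 each), and was called higher (log2 change 0.29, SE 0.0931, limma adjusted p = 0.0187). That call was lost without Hnrnpk siRNA replicate 1 (adjusted p = 0.0625), without Hnrnpk siRNA replicate 2 (0.19) and with no filter (0.0527), and the alternatives gave 0.00188 to 0.19. Scd4 averaged 0.0361 and 0.0519 RPKM and was not tested.

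**Figure D2:**
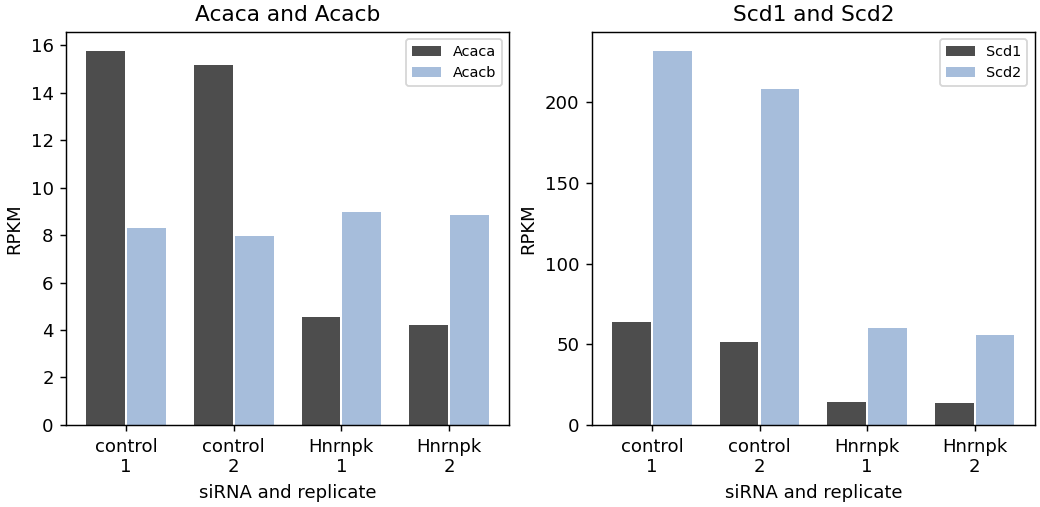
RPKM of Acaca and Acacb (left) and of Scd1 and Scd2 (right) in each library, 1 bar per gene and library with axes from 0. The bar of Acaca is taller than that of Acacb in both control libraries and shorter in both Hnrnpk siRNA libraries, while Scd2 exceeds Scd1 in all 4.

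Both desaturases of polyunsaturated fatty acids were lower. Fads2 (ENSMUSG00000024665, chromosome 19, 10062765 to 10101746), which acts first, stood at 76.2 and 73.0 RPKM after control siRNA and at 34.8 and 34.5 RPKM after Hnrnpk siRNA, 46.4% of control (log2 change -1.10, SE 0.0611). Fads1 (ENSMUSG00000010663, chromosome 19, 10182888 to 10196877) stood at 48.1 and 43.1 RPKM and then at 23.7 and 23.9 RPKM, 52.3% of control (log2 change -0.92, SE 0.0704). The groups did not overlap for either gene. The ratio of Fads2 to Fads1 was 1.64 ± 0.0774 in control libraries and 1.45 ± 0.0126 in Hnrnpk siRNA libraries (SD, n = 2 each). Fads1 and Fads2 are transcribed away from each other from starts 81.1 kilobases apart. The third gene of that cluster, Fads3, whose substrate is less well defined, was low at 0.695 ± 0.0892 and 0.769 ± 0.148 RPKM (SD, n = 2 each) and was not called (log2 change 0.084, SE 0.114, limma adjusted p = 0.534).

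The elongases were not called. Elovl5 (ENSMUSG00000032349, chromosome 9, 77917364 to 77984519), which lengthens polyunsaturated fatty acids between the steps of Fads2 and Fads1, had 45.0 and 43.0 RPKM after control siRNA and 42.9 and 41.1 RPKM after Hnrnpk siRNA. The log2 change was -0.067 (SE 0.0629), and its 95% interval ran from 86.6% to 105% of control. Elovl6 (ENSMUSG00000041220, chromosome 3, 129532355 to 129638495), which lengthens palmitate to stearate, had 36.84 and 34.04 RPKM and then 33.99 and 33.99 RPKM. Its log2 change was -0.058 (SE 0.0654), with an interval from 86.7% to 106% of control. For both genes the Hnrnpk siRNA libraries lay just below the lower control library, by less than the control libraries differed from each other. The intervals leave room for a small change in either direction. Falls of the size measured in the 7 called genes lie outside them.

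**Figure D3:**
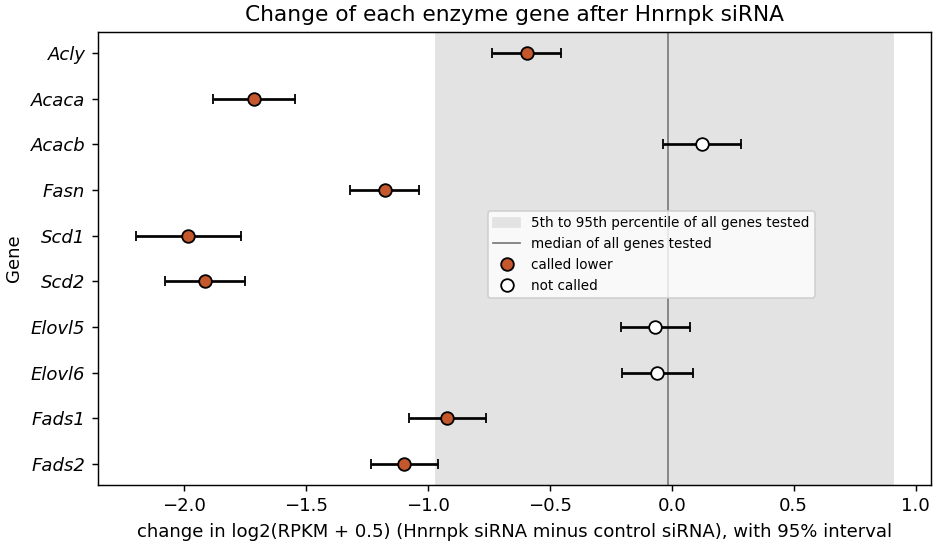
Change in log2(RPKM + 0.5) of each enzyme gene, Hnrnpk siRNA minus control siRNA, with its 95% interval from limma; filled points were called lower and open points were not called. The grey band spans the 5th to 95th percentile of all genes tested (-0.97 to 0.91), and Acaca, Fasn, Scd1, Scd2 and Fads2 lie below it.

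Summed over the 10 genes, RPKM went from 939 ± 39.6 to 459 ± 8.01 (SD, n = 2 each), 48.8% of control. In the control libraries Scd2, Fasn and Acly were the 3 highest of the 10, each at 201 RPKM or more. After Hnrnpk siRNA the order from the top was Acly, Fasn, Scd2 and Elovl5 in both libraries. Elovl5 moved from the seventh to the fourth place while its own level lay between 41.1 and 45.0 RPKM, and Scd1 moved from the fifth to the eighth. Acaca was just above Acacb at the bottom of the order in the control libraries and below it after Hnrnpk siRNA. In the control group Scd2 and Fasn could not be ordered, since Scd2 was higher in replicate 1 and Fasn in replicate 2.

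The genes next to the enzyme genes on the chromosome gave a comparison of position, chosen after values had been seen. The nearest tested protein-coding gene on each side gave 16 neighbours outside the 10. Their gaps ran from 0.071 to 1636 kilobases, and Scd3 and Fads3 were among them. Of the 16 neighbours, 6 were called higher, 5 lower and 5 were not called. The 11 called are 68.8%, near the 67.2% of all genes tested. Their median log2 change was 0.099, and 0 of the 16 were called lower by at least 2-fold, against 4.52% of all genes tested, a share too small to be read from 16 genes. Tada2a, which encodes a histone acetyltransferase adaptor, lies 0.071 kilobases from Acaca. Its RNA went from 40.6 to 32.2 RPKM (log2 change -0.33, SE 0.0627, limma adjusted p = 0.00117). Dus1l, beside Fasn, had a log2 change of -0.31 (limma adjusted p = 0.00265). Fen1, the flap endonuclease gene 2.25 kilobases from Fads1, was called higher at 0.22 (limma adjusted p = 0.00777). The largest rise of the 16 was that of Gcm1, 67.4 kilobases from Elovl5 (log2 change 1.44, limma adjusted p = 2.42e-06). The largest fall was that of Sec31b, 109 kilobases from Scd1 and low at 0.793 and 0.322 RPKM (log2 change -0.65, limma adjusted p = 0.000903).

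Genes that regulate fatty acid synthesis went both ways. Of 27 tested, 8 were called higher and 12 lower, 74.1% in all, with a median log2 change of -0.062. Over all genes tested 67.2% were called, 32.2% higher and 35% lower, and the shares of this list and of those that follow are read against these. Srebf1, which encodes SREBP-1, had 41.9 and 36.3 RPKM with control siRNA and 26.9 and 27.9 RPKM with Hnrnpk siRNA (log2 change -0.50, SE 0.0774, limma adjusted p = 0.000313). Srebf2, which encodes the SREBP mostly tied to sterol synthesis, fell with a log2 change of -0.39 (limma adjusted p = 0.00114). Scap, the escort that carries SREBP precursors to the Golgi, rose from 16.6 ± 0.411 to 23.7 ± 0.271 RPKM (mean ± SD, n = 2 each; log2 change 0.50, limma adjusted p = 9.34e-05). A gene on the other strand overlaps 13.2% of the exonic bases of Scap. Insig1, which retains Scap with its SREBP cargo in the endoplasmic reticulum, was not called (log2 change -0.35, SE 0.149, limma adjusted p = 0.0627). Its control libraries differed widely, at 37.8 and 25.3 RPKM. Insig1 was called under 4 of the 13 alternatives, among them the fit without control siRNA replicate 2 (log2 change -0.63). Without control siRNA replicate 1 its log2 change was -0.063.

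Other genes of the same list changed in both directions. Mlxipl, which encodes the glucose-responsive factor ChREBP, went from 3.01 ± 0.448 to 1.26 ± 0.0562 RPKM (mean ± SD, n = 2 each; log2 change -0.99, limma adjusted p = 3.04e-05), and its relative Mlxip had a log2 change of -0.76 (limma adjusted p = 1.92e-05). Mlx, the partner of both, was called higher at 0.26 (limma adjusted p = 0.00785). Mid1ip1, whose product promotes polymerization of acetyl-CoA carboxylase, and its paralog Thrsp, a lipogenic protein, had log2 changes of -0.66 and -0.61 (limma adjusted p = 0.00023 and 0.000821). An antisense gene overlaps 25.5% of the exonic bases of Mid1ip1, and strand is not stated in the sources used here. The liver X receptor gene Nr1h2 was called lower (log2 change -0.21, limma adjusted p = 0.0295), but its change was 0.0053 with GC trends removed (adjusted p = 0.943). Its call was also lost without control siRNA replicate 1 (adjusted p = 0.112) and without Hnrnpk siRNA replicate 1 (0.227), over a range of 0.0123 to 0.943. Nr1h3, the other liver X receptor, was not called (0.24, adjusted p = 0.137), and without control siRNA replicate 2 it was called at 0.42 (adjusted p = 0.00328; 0.00328 to 0.599 over the alternatives). The largest rise in the list was that of Prkab1, a subunit of the kinase AMPK, which phosphorylates and inhibits acetyl-CoA carboxylase, at 22.7 ± 2.03 and 41.9 ± 0.953 RPKM (mean ± SD, n = 2 each; log2 change 0.87, limma adjusted p = 7.11e-06). The other AMPK subunit genes of the list went both ways. Prkaa1, Prkab2 and Prkag1 were called higher (log2 changes 0.29, 0.44 and 0.46). Prkaa2 and Prkag2 were called lower (-0.40 and -0.45, limma adjusted p = 0.00825 and 0.00169).

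Among genes that supply acetyl-CoA and NADPH, 6 of 19 tested were called higher and 7 lower (68.4% in all), with a median log2 change of -0.14. The mitochondrial citrate exporter Slc25a1 fell from 65.6 ± 4.39 to 39.8 ± 2.30 RPKM (mean ± SD, n = 2 each; log2 change -0.71, limma adjusted p = 2.13e-05). Acss2, which makes acetyl-CoA from acetate, fell from 1.86 ± 0.367 to 0.595 ± 0.0168 RPKM (mean ± SD, n = 2 each; log2 change -1.10, limma adjusted p = 2.91e-05), and transketolase (Tkt) had a log2 change of -0.84 (limma adjusted p = 3.12e-06). Malic enzyme Me1 and isocitrate dehydrogenase Idh1, both sources of cytosolic NADPH, rose with log2 changes of 0.54 and 0.40 (limma adjusted p = 0.000235 and 0.00186). Not all NADPH supply genes rose. G6pdx was called lower (log2 change -0.27, limma adjusted p = 0.00392), and Pgd was not called (-0.14, limma adjusted p = 0.0621). At 95% identity or more, 60.1% of the Me1 transcript matches other genes. The count called higher was 3 without control siRNA replicate 2 and 3 without Hnrnpk siRNA replicate 2.

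The list of remaining elongation and desaturation genes, 19 tested, also held Mcat, Oxsm, Cbr4 and Mecr of mitochondrial fatty acid synthesis. In this list 5 were called higher and 5 lower (52.6% in all), with a median log2 change of -0.058. Those called lower were Tecr, Cyb5b, Mcat, Cbr4 and Mecr. The 3-ketoacyl-CoA reductase gene Hsd17b12 rose from 28.3 ± 0.760 to 33.6 ± 1.78 RPKM (mean ± SD, n = 2 each; log2 change 0.24, limma adjusted p = 0.00947), and Elovl1, an elongase of very long chains, rose by 0.29 on the log2 scale (limma adjusted p = 0.005). Ptplb, a 3-hydroxyacyl-CoA dehydratase now called Hacd2, rose by 0.30 (limma adjusted p = 0.0107). The count called higher was 0 without Hnrnpk siRNA replicate 2, where these adjusted p-values were 0.0877, 0.0581 and 0.143 in the same order; it was 3 without Hnrnpk siRNA replicate 1 and 3 with no filter. Tecr, the last reductase of the elongation cycle, fell from 211 ± 26.7 to 140.3 ± 0.129 RPKM (mean ± SD, n = 2 each; log2 change -0.58, limma adjusted p = 0.000223). Mcat and Cbr4, which belong to the separate fatty acid synthesis of mitochondria, had log2 changes of -1.21 and -0.90 (limma adjusted p = 4.75e-06 and 8.82e-06). Elovl4 and Elovl7 were not called (-0.072 and 0.19, limma adjusted p = 0.437 and 0.11), nor was Elovl2 (-0.073, adjusted p = 0.564), which was called at -0.23 without control siRNA replicate 2 (adjusted p = 0.0321). Elovl7 was called under 2 of the 13 alternatives, among them the fit without control siRNA replicate 1 (log2 change 0.25). Its largest change, 0.29, came with quantile normalization. Elovl3 lay below 0.5 RPKM and was not tested, and the electron donor reductase Cyb5r3 was not called (-0.058, limma adjusted p = 0.487).

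Uptake and activation genes had 4 of 14 tested called higher and 9 lower (92.9% in all), with a median log2 change of -0.34. Lipoprotein lipase (Lpl) and the acyl-CoA synthetase Acsl5 fell, with log2 changes of -1.07 and -0.99 (limma adjusted p = 7.31e-06 and 6.46e-06). Fabp3, a cytosolic fatty acid-binding protein, was the largest rise, from 145 ± 30.8 to 634 ± 30.0 RPKM (mean ± SD, n = 2 each; log2 change 2.14, limma adjusted p = 7.43e-07); it shares 48.8% of its transcript with a processed pseudogene. Slc27a3, of a family of fatty acid transport proteins, rose by 0.58 on the log2 scale (limma adjusted p = 0.000265).

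In fatty acid oxidation, the opposite process, 11 of 27 tested genes were called higher and 7 lower (66.7% in all, near the share over all genes), with a median log2 change of 0.099. Cpt1a, the carnitine palmitoyltransferase that malonyl-CoA inhibits, stood at 14.6 and 10.8 RPKM after control siRNA and at 36.2 and 35.4 RPKM after Hnrnpk siRNA (log2 change 1.47, SE 0.114, limma adjusted p = 4.14e-06). The carnitine-acylcarnitine carrier Slc25a20 rose from 15.1 ± 0.127 to 39.1 ± 2.57 RPKM (mean ± SD, n = 2 each; log2 change 1.34, limma adjusted p = 4.36e-07). Cpt2, the next step of the same shuttle, fell from 19.6 ± 2.37 to 10.2 ± 0.403 RPKM (mean ± SD, n = 2 each; log2 change -0.91, limma adjusted p = 1.62e-05). Mlycd, which breaks down malonyl-CoA, fell further, from 3.71 and 2.30 RPKM to 0.425 and 0.441 RPKM (log2 change -1.88, SE 0.162, limma adjusted p = 8e-06).

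Of the glycerolipid synthesis genes, 9 of 24 tested were called higher and 7 lower, 66.7% in all, near the share over all genes, with a median log2 change of -0.010. The acyltransferase gene Agpat9, now called Gpat3, rose from 1.44 ± 0.206 to 7.09 ± 0.104 RPKM (mean ± SD, n = 2 each; log2 change 1.97, limma adjusted p = 2.98e-07), and the phosphatidate phosphatase gene Lpin1 rose by 1.11 on the log2 scale (limma adjusted p = 0.00035). An antisense gene overlaps 30.0% of the exonic bases of Agpat9. The acyltransferases Mboat2 and Mogat2 had log2 changes of -1.23 and -1.10 (limma adjusted p = 2.46e-06 and 3.41e-05). Without Hnrnpk siRNA replicate 2 the count called lower was 4.

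Sterol synthesis genes, which the SREBP-2 form controls, had 2 of 19 tested called higher and 10 lower (63.2% in all), with a median log2 change of -0.20. Dhcr7, the last reductase of cholesterol synthesis, fell with a log2 change of -1.18 (limma adjusted p = 5.04e-06) and Fdps, farnesyl diphosphate synthase, with -0.82 (limma adjusted p = 3.87e-05); Fdps shares 91.4% of its transcript with other genes. The 2 genes called higher were Sc4mol, now Msmo1, and Sc5d, at 0.39 and 0.21 (limma adjusted p = 0.0125 and 0.0235). Without control siRNA replicate 2 neither was called (adjusted p = 0.0506 and 0.0733), and the count was 1 without Hnrnpk siRNA replicate 1 and 1 without Hnrnpk siRNA replicate 2. With GC trends removed the count called higher was 1 too, and the log2 change of Sc5d was 0.15. Among the 10 enzyme genes, which were proposed with this contrast in view, the median was -1.01.

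**Figure D4:**
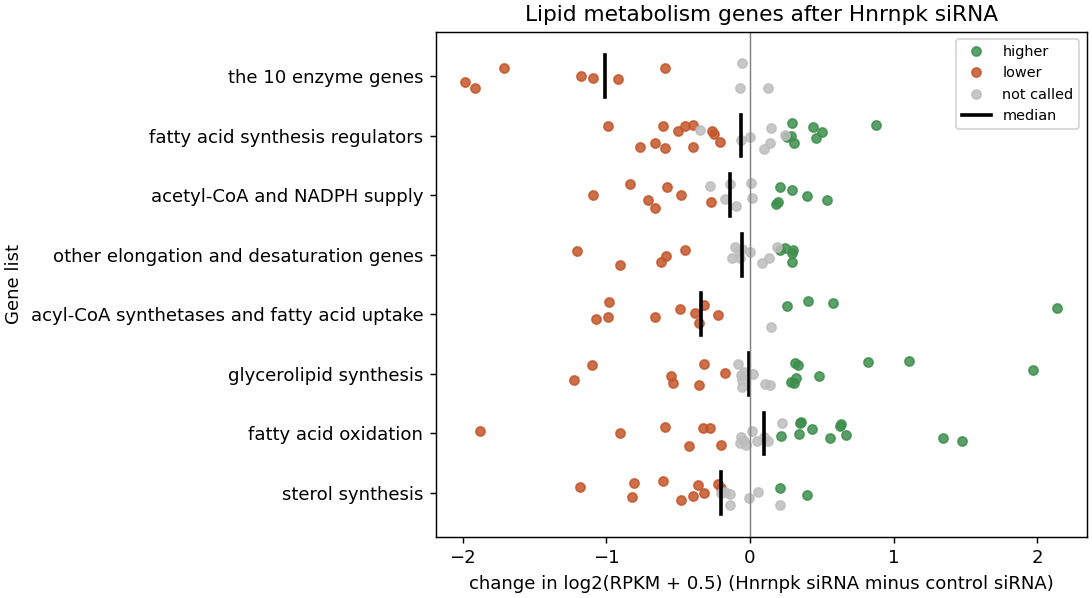
Change in log2(RPKM + 0.5), Hnrnpk siRNA minus control siRNA, for the 10 enzyme genes and the tested genes of 7 related lists; each point is a gene, coloured by limma's call, and black bars are medians. The median of the enzyme genes is -1.01 and the list medians lie between -0.34 and 0.099. The enzyme genes were proposed with this contrast in view, so the distance between these medians is a description only.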

How the data were processed

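The authors deposited RPKM per gene for 4 libraries, as a single table. BWA, SAMtools and mm9 are named without roles, per the submitters' processing notes; counting tool, annotation, strand and treatment of reads with several matches are not stated there. The labels describe both ribosomal RNA depletion and poly(A) selection. Steps between low values gave relative depths of 0.982, 0.891 and 0.882 for control replicate 2 and Hnrnpk siRNA replicates 1 and 2 (control replicate 1 as 1). In single-exon genes 29.9% to 32.9% of low values lay within 0.02 of a whole number of reads, too few to recover counts, so absolute depth is not given.

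The comparison used limma 3.58.1 under R 4.3.3 (mean-variance trend, two-sided) on log2(RPKM + 0.5), which understates the change of low genes, for the 12486 of 22138 genes that averaged 0.5 RPKM or more. Benjamini-Hochberg adjustment covered all genes tested. Positions, overlaps and transcript identity (at least 95% over at least 100 bases) came from GENCODE M21 on GRCm38 by identifier, a build other than the authors'. The 10 enzyme genes and the lists were chosen with earlier results of these data known. Named are the 10 genes, Hnrnpk and a set of pathway genes whatever their values. Up to 2 called rises and 2 called falls of each list are named too, largest first, whose groups did not overlap. Neighbours, markers and some further list genes come on top. Alternatives were the added constant, filter, scaling, variance trend, replicate block, GC trends and leaving out each library.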

Additional observations from a re-analysis of the deposited data

How the results depend on the processing

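The 7 enzyme genes called lower were 7 under each of the 13 alternatives, and the 10 enzyme genes kept the sign of their change in all of them. The count called higher was 1 with GC trends removed, where Acacb reached 0.25, and 0 otherwise. Leaving out a library at a time gave 3155 to 4033 genes called higher and 3552 to 4502 lower over all genes. The replicate number pairs nothing by the labels, and same-numbered libraries deviated together with r = 0.027 across genes; with the replicate block, 4162 genes were called higher and 4460 lower, and 7 enzyme genes lower. Over the 55 tested genes named by the selection given above, 681 of 713 values kept their direction and side of the threshold. Another 16 lost a call, 10 gained one and 6 changed sign. Sign changes were Elovl2 (0.0073 with quantile normalization, -0.23 to 0.079 over leave-one-out fits), Nr1h2 (0.0053 with GC trends removed), Cyb5r3 (0.046 with GC trends removed, -0.13 to 0.016 over leave-one-out fits) and Fads3 (-0.035 to 0.20 over leave-one-out fits); the cause was not tested. With no filter Sc4mol and Nr1h2 were not called (adjusted p = 0.0812 and 0.0685) and 1 sterol gene was called higher. The median SE of a log2 change was 0.0803, which limits what 2 libraries in each group resolve.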
